A study of Sus scrofa with 34 samples.

Results

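The genes described here encode subunits of the mitochondrial respiratory chain and of ATP synthase. They were taken as every row of the liver and ileum count tables whose pig gene symbol begins with the names of these subunits: NDUFA, NDUFB, NDUFC, NDUFS and NDUFV with a number for complex I, SDHA to SDHD for complex II, UQCR for complex III, COX4 to COX8 subunits of the A, B or C kind for complex IV, and ATP5 for ATP synthase, which is also called complex V. The rule found 61 of the 25880 genes in the tables, 29 named for complex I, 4 for complex II, 6 for complex III, 11 for complex IV and 11 for complex V. The rule itself uses names and no measured value. NDUFA4 and its relative NDUFA4L2 were counted with complex I after their names, although NDUFA4 is now known as a component of complex IV.

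Complexes I and II pass electrons from NADH and succinate to ubiquinone, complex III passes them on to cytochrome c, and complex IV hands them to oxygen. Complexes I, III and IV pump protons out of the mitochondrial matrix as they do so, and ATP synthase uses the return of these protons to make ATP. Most subunits are encoded in the nucleus and imported, while a smaller set is encoded in mitochondrial DNA, so each complex other than complex II is built from products of both genomes. In liver these complexes take up the electrons that beta-oxidation of fatty acids releases.

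Weaned crossbred piglets were fed 1 of 4 diets for 28 days, and RNA of their tissues was sequenced. The control group received a basal diet, the PFA group received the same diet with a phytogenic feed additive based on oregano and caraway oils, the OO group received the basal diet with oxidized (heated) rapeseed oil added, and the OO + PFA group received both. The oil diets thus also held more fat than the other diets, and the oxidation and the amount of the oil cannot be told apart. Liver was sequenced from 6 piglets of each diet and ileum from 5 control and 5 PFA piglets, and all the piglets given an ileum library also gave a liver library. All piglets on a diet lived in the same pen, and effects of pen and of diet cannot be told apart. The liver comparisons used 23 libraries, without the OO + PFA pig 77. The study left out an OO + PFA animal for its low share of mapped reads, and this pig has the lowest share in the mapping table of the study. In its library 46.4% of the gene counts came from mitochondrial DNA and there were 36.6 read pairs with several alignments for each 100 on genes.

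Between 18738055 and 42446834 read pairs per library were counted on genes, and values below are CPM, counts scaled to a common library size by TMM within each tissue. In the 23 liver libraries used, hepatocyte markers summed to between 69190 and 153100 CPM in liver and to between 2146 and 4930 CPM in ileum, where TTR and CYP2E1 were at 0 and ALB had at most 5 counts. SERPINA1 and TAT had at most 1 and 4 counts in an ileum library. The other markers of the list were high in ileum, with 21596 to 91923 counts for APOA1 and 18410 to 34689 for CPS1. In liver CPS1 had 10030 to 58876 counts. Enterocyte markers summed to between 16540 and 29940 CPM in ileum and to between 292.7 and 931.9 CPM in liver. Smooth muscle markers summed to between 1862 and 9143 CPM in the ileum libraries. The tissues are bulk samples, in which fewer cells of a type and less RNA per cell cannot be told apart. Of the 61 subunit genes, 60 had enough counts to be tested in each tissue. The exception was COX6B2, the testis form of a complex IV subunit, with 0 to 5 counts in any liver library and 0 to 1 in any ileum library.

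Promoter sequences of 3 subunit genes are shown because the nuclear genes of the chain are spread over many chromosomes and are known to share binding motifs of a few factors. Each runs from 250 bases before to 50 bases after the annotated start of the gene, read 5′ to 3′ on the gene's strand, with the bases from RefSeq on Sscrofa11.1. NDUFS6, an accessory subunit of complex I, is on the minus strand and its window is chr16:78999952-79000251. COX8A, a small structural subunit of complex IV, is on the minus strand and its window is chr2:8103264-8103563. ATP5MC3, 1 of 3 genes for the c subunit that forms the rotor ring of ATP synthase, is on the minus strand and its window is chr15:81094248-81094547. Capitals mark a match to the motif of nuclear respiratory factor NRF1 in NDUFS6, which reads the same on both strands, matches to CTTCCGG, the reverse complement of the ETS motif CCGGAAG, in COX8A and ATP5MC3, and a match to TGACCTTGA, the reverse complement of the estrogen-related receptor motif TCAAGGTCA, in ATP5MC3.
NDUFS6: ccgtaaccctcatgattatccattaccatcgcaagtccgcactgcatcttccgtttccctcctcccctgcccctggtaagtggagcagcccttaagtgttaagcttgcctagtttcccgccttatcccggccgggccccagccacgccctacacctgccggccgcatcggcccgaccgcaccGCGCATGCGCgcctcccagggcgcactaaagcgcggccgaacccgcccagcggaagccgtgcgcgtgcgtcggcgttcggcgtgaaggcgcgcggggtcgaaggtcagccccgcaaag
COX8A: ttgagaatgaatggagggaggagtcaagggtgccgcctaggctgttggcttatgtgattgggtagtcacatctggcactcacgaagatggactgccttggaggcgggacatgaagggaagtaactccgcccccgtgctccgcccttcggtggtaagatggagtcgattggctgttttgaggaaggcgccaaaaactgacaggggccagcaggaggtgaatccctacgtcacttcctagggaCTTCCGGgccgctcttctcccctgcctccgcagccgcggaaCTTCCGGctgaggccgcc
ATP5MC3: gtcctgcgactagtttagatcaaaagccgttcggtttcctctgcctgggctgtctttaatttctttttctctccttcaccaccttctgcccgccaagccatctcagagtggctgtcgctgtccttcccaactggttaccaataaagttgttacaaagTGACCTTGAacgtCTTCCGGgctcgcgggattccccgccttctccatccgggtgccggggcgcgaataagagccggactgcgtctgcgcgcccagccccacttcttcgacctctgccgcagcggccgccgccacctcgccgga

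All 61 members had a promoter window, and the motifs were searched on both strands. The ETS motif, the core of the site bound by GABPA (also called NRF2), was in 20 of them, or 32.8%, against 11.0% of all 19559 promoter windows. The NRF1 motif was in 4, or 6.56%, against 1.13% of all windows. The YY1 motif AAGATGGC was in 5, or 8.20%, against 2.48%, and the estrogen-related receptor motif was in 2, or 3.28%, against 0.358%. The string TGACCTTTG, part of a nuclear receptor repeat, was in 1, or 1.64%, against 0.312%. In all 26 of the 61 windows held at least 1 of the 5 motifs, and the windows of NDUFS8, NDUFC2 and UQCRC1, described below, held none of them. A match is a description of the letters and not of binding.

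Levels can be compared between genes only per length, and are given here as CPM per kilobase of exon in control piglets. In control liver the median level was 31.6 CPM per kilobase over the complex I genes, 89.6 over complex II, 46.4 over complex III, 87.4 over complex IV and 93 over complex V. The median gene of complex I thus stood below that of each other complex in liver, and the same held in control ileum, where the medians were 38.0, 119.5, 62.0, 166.2 and 125.8 CPM per kilobase. The tissues were scaled separately, so this order is within a tissue. The number of copies of a subunit per complex is not the same for all subunits, and its part in this order was not tested.

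Within each complex the genes spanned a wide range. The highest level per length in control liver was that of NDUFB4 in complex I (122.3 ± 6.44, SD, n = 6), SDHB in complex II (169.4 ± 13.6), UQCR10 in complex III (106.7 ± 20.1), COX7B in complex IV (289.1 ± 34.2) and ATP5F1A in complex V (185.3 ± 28.9 CPM per kilobase). SDHB is the iron-sulfur subunit of succinate dehydrogenase, and ATP5F1A is the alpha subunit of the F1 head. The lowest levels per length were those of NDUFA4L2 (0.186), SDHA (66.8), UQCRC2 (16.4), COX6A2 (4.65) and ATP5F1D (44.7 CPM per kilobase). In control ileum NDUFB4, UQCR10, COX7B and ATP5F1A were again the highest of their complexes, at 123.5, 80.0, 290.2 and 369.5 CPM per kilobase, while SDHD, a membrane anchor at 180.2, stood highest in complex II. The lowest in ileum were NDUFA4L2 (0.263), SDHA (63.7), UQCR11 (30.1), COX6A2 (5.48) and ATP5F1D (51.5 CPM per kilobase). The RefSeq exon models of NDUFA4L2 and COX6A2 are 6639 and 3365 bases long, which lowers their level per length, and 99.8% of the exon bases of UQCR11 lie within those of TCF3 on the same strand, so its counts are uncertain.

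**Figure D1:**
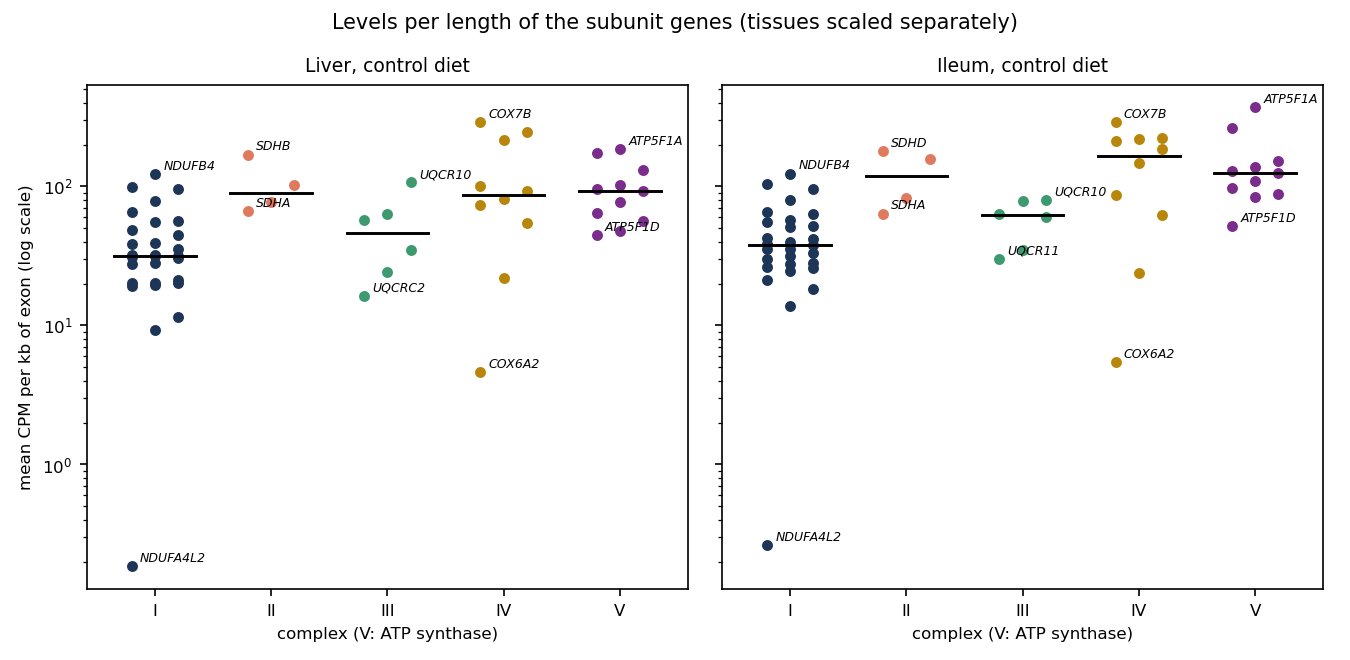
Mean level in CPM per kilobase of exon, on a log axis, of the 60 tested subunit genes in control liver and control ileum, by complex. The complex I genes have the lowest median in both tissues (31.6 in liver and 38.0 in ileum), and NDUFA4L2 and COX6A2 are far below the other genes of their groups.

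Several subunits have tissue isoforms. COX7A1, known as the heart and muscle form of a complex IV subunit, stood close to its liver-type counterpart COX7A2 in liver, with a ratio per length within a library of 0.936 to 1.36 and a median of 1.15 in control piglets. In control ileum the same ratio was 0.0776 to 0.144 with a median of 0.113, and it did not overlap with liver in any diet, where it lay between 0.630 and 1.36. Markers of skeletal or cardiac muscle summed to at most 0.24 CPM in the 23 liver libraries used and to between 13.9 and 78.3 CPM in ileum. The ileum sum rests on CKM (265 to 1624 counts) and ACTA1 (29 to 244). TNNT3 had at most 5 counts in an ileum library, MYL2 had 0 and MYH7 was not found, so the list does not show striated muscle in ileum. The part of muscle cells in the ratio was not tested. COX6A2, the muscle form of COX6A, stayed between 0.0116 and 0.0333 of COX6A1 per length in every library of both tissues, and NDUFA4L2, known as a hypoxia-induced relative, between 0.000336 and 0.00664 of NDUFA4.

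The comparison of OO with control asks what the oxidized oil alone did in liver. In OO livers 55 of the 60 tested subunit genes had a log2 fold change above 0, against 57.7% of all genes, and their median was 0.22 against 0.06 over all genes. No member passed the test in edgeR's quasi-likelihood fit (0 of 60 reached a Benjamini-Hochberg adjusted p of 0.05 or less), where 2.71% of all genes were called and 1.37% were called higher. At an unadjusted p under 0.05, 22 members were higher and none lower, against 12.1% of all genes higher and 9.32% lower (21.4% in all), and DESeq2 called 3. By complex the median log2 difference was 0.26 for complex I, 0.14 for complex II, 0.26 for complex III, 0.20 for complex IV and 0.22 for complex V.

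The members with the smallest p in OO were complex I subunits. NDUFS8, a core subunit that carries iron-sulfur clusters, ranged from 7.73 to 26.7 CPM in control with a median of 11.0, and from 8.15 to 98.9 CPM in OO with a median of 29.5. NDUFS6, an accessory subunit with a zinc site, ranged from 14.2 to 20.9 CPM with a median of 16.4 in control and from 12.3 to 50.5 CPM with a median of 26.3 in OO. For both genes the OO pigs 99 and 130 and the pig titled PigLiv_00_102 stood above every control library and the OO pigs 74, 88 and 97 were within or close to the control range. The log2 difference was 1.58 for NDUFS8 (SE 0.49, unadjusted p = 0.00358, adjusted p = 0.0733 in edgeR's quasi-likelihood test), 0.60 for the accessory subunit NDUFB2 (adjusted p = 0.0750) and 0.76 for NDUFS6 (adjusted p = 0.0795). None of these passed the threshold with all libraries. Without OO pig 97, 15 members were called, and without OO pig 74, 6 were called. Here and below, unless stated, such counts of refits are given without the share of all genes called in the same fit. They describe how the calls depended on single libraries or settings, and are not set against other genes.

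In OO + PFA livers 3 of the 60 members rose against control, where 5.08% of all genes were called and 4.09% were called higher, so the share of members (NDUFS6, NDUFS8 and NDUFC2) was near that of all genes. In the 5 OO + PFA pigs, listed in the same order throughout and beginning with pigs 79 and 98, NDUFS6 was at 33.1, 34.3, 29.7, 34.9 and 33.9 CPM. NDUFS8 was at 53.1, 39.5, 36.1, 48.6 and 46.6 CPM in the same pigs. All 5 values of each gene were above the 6 control values given before. NDUFC2, an accessory subunit of the membrane arm of complex I, ranged from 19.3 to 34.1 CPM with a median of 26.7 in control and was at 52.8, 40.7, 34.98, 37.1 and 52.4 CPM in OO + PFA. Its groups did not overlap either, though the lowest OO + PFA value and the highest control value were close. The log2 fold change was 0.94 for NDUFS6 (SE 0.25, adjusted p = 0.0340), 1.73 for NDUFS8 (SE 0.50, adjusted p = 0.0470) and 0.67 for NDUFC2 (SE 0.20, adjusted p = 0.0496, edgeR's quasi-likelihood test).

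Over the 60 members, 46 were above 0 in OO + PFA against control, against 48.8% of all genes, and the median was 0.11 against -0.01. At an unadjusted p under 0.05, 13 were higher and none lower, against 14.6% and 7.93% of all genes. The complex medians were 0.11, 0.15, 0.18, 0.11 and 0.05 from complex I to complex V. The 3 calls were lost without any 1 of the control pigs 71, 85, 100 and 110 or the OO + PFA pigs 79 and 98 or those titled PigLiv_00P_126 and PLOOP_137_2, and 1 was called without control pig 92. The comparisons of OO and of OO + PFA with control share the control libraries, so their likeness is not independent.

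OO + PFA against PFA is the comparison of the oil among piglets that all received the additive, and it shares no library with OO against control. No member was called (0 of 60 in edgeR's quasi-likelihood test, 3 in DESeq2), where 1.58% of all genes were called, and 19 members were higher and none lower at an unadjusted p under 0.05, against 15.1% and 8.43% of all genes. A total of 50 members were above 0, against 50.3% of all genes, with a median of 0.23 against 0.003. The complex medians were 0.13, 0.14, 0.26, 0.31 and 0.23. The smallest p belonged to UQCRC1, a core protein of complex III, and COX6A1, the liver form of a complex IV subunit. UQCRC1 ranged from 83.4 to 123.6 CPM with a median of 96.1 in PFA and was at 151.5, 149.9, 121.0, 138.8 and 161.3 CPM in OO + PFA. COX6A1 ranged from 83.1 to 105.7 CPM with a median of 86.8 in PFA and was at 134.0, 130.7, 112.9, 128.3 and 142.0 CPM in OO + PFA. The COX6A1 groups did not overlap, and for UQCRC1 only 1 pig of OO + PFA lay below the highest PFA value. The log2 difference was 0.55 for UQCRC1 (adjusted p = 0.0501), 0.51 for COX6A1 (adjusted p = 0.0506) and 0.82 for NDUFS6 (adjusted p = 0.0912), just short of the threshold for the first 2 genes. Of the 60 members, 47 were higher in both oil comparisons without shared libraries and 2 were lower in both. How many of all genes were higher in both was not counted, so these numbers are not set against other genes.

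**Figure D2:**
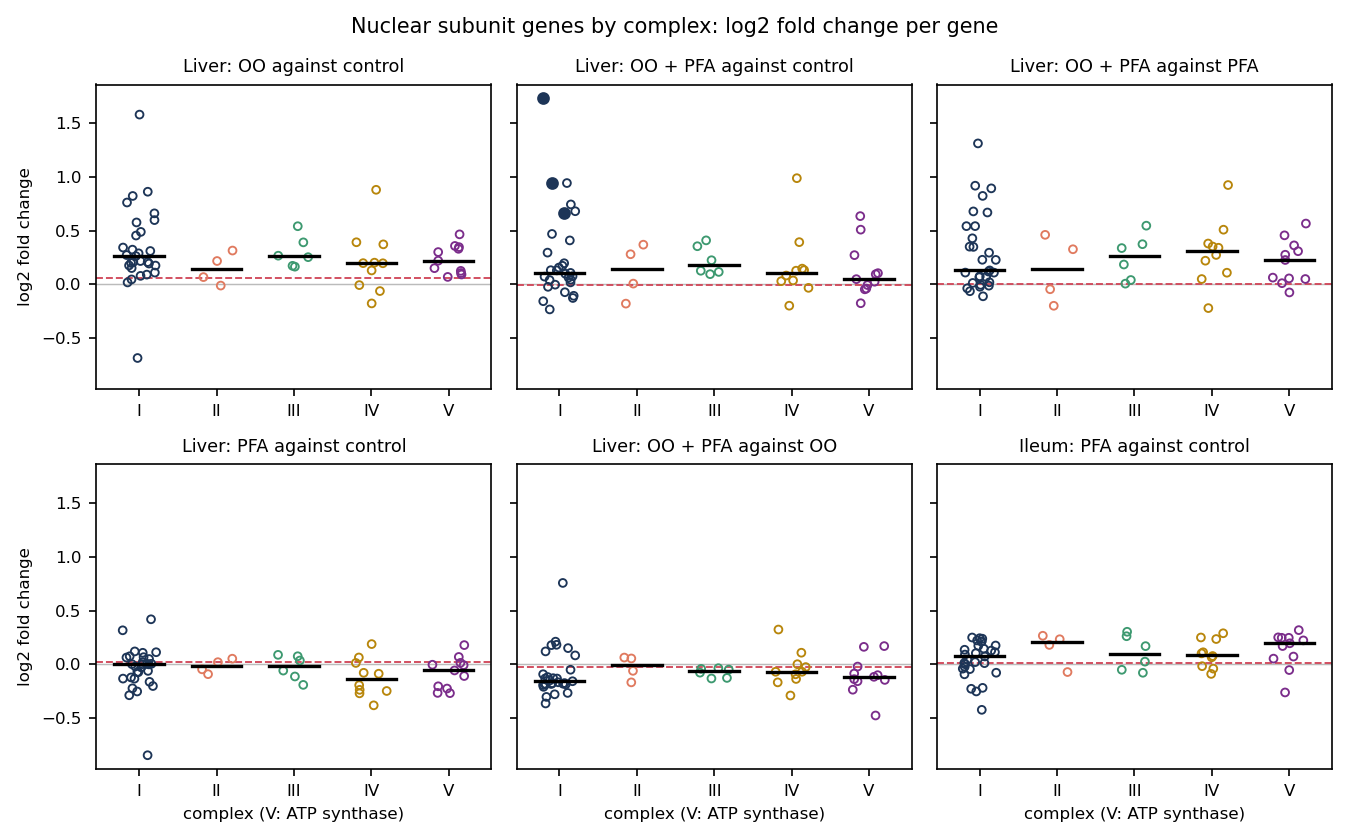
Log2 fold change of each of the 60 tested subunit genes by complex in 6 comparisons. Filled points are members with an adjusted p of 0.05 or less, black bars are the medians of a complex and the red dashed line is the median of all genes. The points lie mostly above the line for the oil comparisons, and the 3 filled points, all in complex I, are in OO + PFA against control.

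The effect of the oil was also taken over both diets in the same fit, as the mean of OO and OO + PFA against the mean of control and PFA, a contrast added after the single diets had been seen and not independent of them. In this contrast 16 of 60 members rose and none fell, where 11.8% of all genes were called, 8.95% higher and 2.83% lower. These calls and those given below by complex were all lost with the GC slope of each library as a term (0 called), as described further on, and 26 were called with library totals. Of the members, 56 were above 0, against 50.9% of all genes, and the median was 0.21 against 0.006 over all genes. At an unadjusted p under 0.05, 31 were higher and none lower, against 18.1% and 9.63% of all genes. By complex 7 of 29 were called in complex I, 2 of 4 in complex II, 1 of 6 in complex III, 3 of the 10 tested in complex IV and 3 of 11 in complex V. The medians were 0.21, 0.14, 0.26, 0.21 and 0.18. Of the cell markers TAT and APOA4 were higher with the oil (log2 fold change 1.05 and 2.47), MARCO of the 4 macrophage markers was higher (0.81), and CYP2E1 and SERPINA1 were lower (-0.42 and -0.65). The macrophage list summed to between 169.9 and 496.2 CPM in OO + PFA, 209.8 and 325.7 in OO, 100.4 and 330.8 in PFA and 88.4 and 327.7 in control, and its part in the result was not tested. The count was 30 without OO pig 97, 9 without OO pig 130 or the OO pig titled PigLiv_00_102, and 10 without control pig 100 or 110 or PFA pig 67 or 107. For these refits the share of all genes called is not given.

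Among the core subunits of complex I, NDUFV1, NDUFV2, NDUFS1, NDUFS3 and NDUFS8 were above 0 with the oil, and NDUFV1 and NDUFS8 were called. NDUFS8 rose by 1.45 on the log2 scale (SE 0.35, adjusted p = 0.0124). NDUFV1, which holds the NADH and flavin site, ranged from 23.1 to 49.7 CPM in control with a median of 29.9, from 22.3 to 45.1 CPM in PFA with a median of 34.9, and from 25.5 to 104.2 CPM in OO with a median of 61.0. In the OO + PFA pigs it was at 74.1, 62.1, 51.0, 60.5 and 77.3 CPM, and 8 of 11 oil libraries were above every library without oil (log2 fold change 0.86, SE 0.21, adjusted p = 0.0124). The differences were smaller for NDUFV2 (0.09), NDUFS1 (0.06) and NDUFS3 (0.03), none of which passed the test. These core subunits of the matrix arm thus had log2 differences from 0.03 to 1.45.

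Among the accessory subunits of complex I, NDUFS6 rose by 0.79 (SE 0.17, adjusted p = 0.00735), NDUFB2 by 0.57 (SE 0.13, adjusted p = 0.0108), NDUFA10 by 0.67 (SE 0.16, adjusted p = 0.0139) and NDUFB11 by 0.56 on the log2 scale (SE 0.16, adjusted p = 0.0300). NDUFB2, a small subunit of the membrane arm, ranged from 10.6 to 17.4 CPM in control with a median of 13.5, from 10.4 to 15.4 CPM in PFA with a median of 13.2 and from 9.61 to 29.7 CPM in OO with a median of 22.1. Its OO + PFA values were 19.1, 19.3, 17.9, 18.8 and 19.96 CPM, and 9 of 11 oil libraries were above every library without oil, the most of any called member. NDUFA10, a kinase-like subunit of the membrane arm, had a median of 47.1 CPM in control (37.7 to 71.5), 51.6 in PFA (43.1 to 72.3) and 81.9 in OO (44.9 to 132.9). The OO + PFA pigs had 93.1, 81.4, 79.7, 76.0 and 100.3 CPM, all above the highest PFA value. NDUFB11 overlapped more, with 3 of 11 oil libraries above every other, and 55.1% of its exon bases lie opposite RBM10, so its counts are uncertain if strand was not used. NDUFA11, the remaining called gene of complex I, was named after its values were seen and rose by 0.46 (adjusted p = 0.0437).

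**Figure D3:**
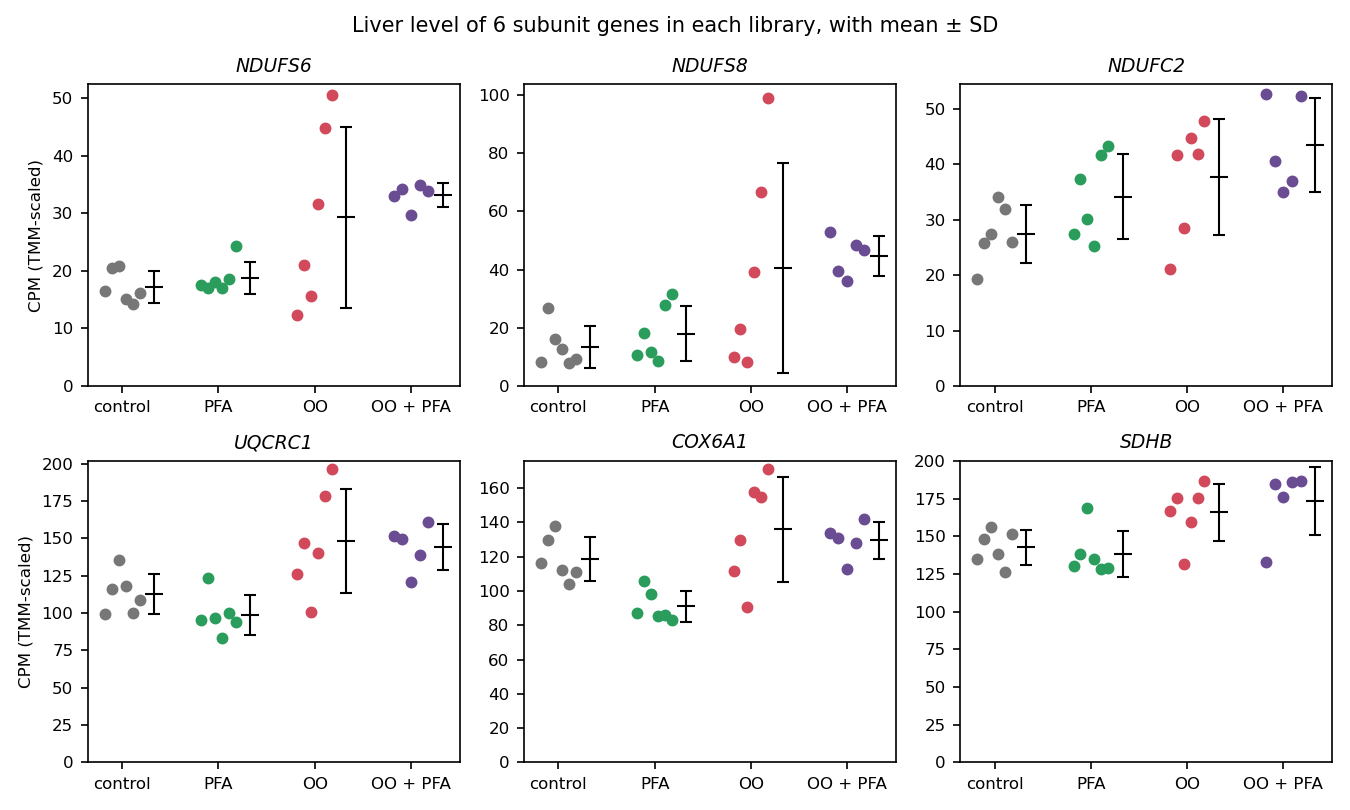
CPM in each of the 23 liver libraries by diet for NDUFS6, NDUFS8, NDUFC2, UQCRC1, COX6A1 and SDHB, with the mean and SD of each diet. The OO + PFA pigs lie above most libraries without oil, apart from pig 79 for SDHB (133.3 CPM, where the median without oil is 136.6). For NDUFC2 some of them lie within the range without oil, which reaches 43.3 CPM. The OO pigs are widely spread for NDUFS8, from 8.15 to 98.9 CPM.

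Both catalytic subunits of complex II rose and neither membrane anchor did. SDHA, the flavoprotein that oxidizes succinate, had a median of 176.4 CPM in control (144.1 to 226.1), 165.1 in PFA (150 to 200.9) and 218.2 in OO (149.2 to 307.0), and OO + PFA pigs were at 237.2, 237.7, 219.7, 218.8 and 245.6 CPM (log2 fold change 0.39, SE 0.10, adjusted p = 0.0211). SDHB had a median of 143.4 CPM in control (126.5 to 156.6), 132.4 in PFA (128.6 to 168.9) and 171.3 in OO (131.9 to 186.6). In OO + PFA it was at 133.3, 184.9, 176.3, 186.4 and 186.7 CPM, so pig 79 lay in the control range and the other 4 above it (log2 fold change 0.27, SE 0.077, adjusted p = 0.0255). The anchors SDHC and SDHD had log2 differences of -0.10 (adjusted p = 0.511) and 0.01. The difference between the subunits was not itself tested.

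In complex III UQCRC1 had the smallest p of all members. It had a median of 112.4 CPM in control (99.2 to 135.6), 96.1 in PFA and 143.5 in OO, where it reached 196.2, with the OO + PFA values given before, and 8 of 11 oil libraries were above every library without oil. The log2 fold change was 0.47 (SE 0.098, adjusted p = 0.00506). Its partner core protein UQCRC2 and the Rieske iron-sulfur protein UQCRFS1 had differences of 0.09 and 0.10 that did not pass the test, and 54.5% of the exon bases of UQCRC2 lie opposite PDZD9.

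In complex IV COX5A, COX6A1 and COX8A rose. COX8A ranged from 27.3 to 71.0 CPM with a median of 35.3 in control, from 24.3 to 67.8 CPM with a median of 40.8 in PFA and from 20.2 to 142.2 CPM with a median of 73.5 in OO, and was at 92.6, 86.3, 63.8, 82.5 and 83.5 CPM in OO + PFA. The log2 fold change was 0.90 (SE 0.26, adjusted p = 0.0297), with 7 of 11 oil libraries above every other. COX5A, a nuclear subunit on the matrix side, moved less but with less spread, from medians of 42.7 CPM in control (38.0 to 50.5) and 42.7 in PFA (34.5 to 57.1) to 53.1 in OO (40.7 to 74.3), and OO + PFA was at 53.1, 58.8, 57.0, 64.0 and 52.3 CPM (log2 fold change 0.39, SE 0.098, adjusted p = 0.0160). COX6A1 had a median of 114.4 CPM in control (103.9 to 137.9) and 142.2 in OO (90.9 to 171.4), with a pooled log2 fold change of 0.35 (SE 0.092, adjusted p = 0.0184). Its groups overlapped, with 4 of 11 oil libraries above every library without oil. The isoforms COX7A1 and COX7A2 had log2 differences of -0.01 and 0.15 that did not pass the test.

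In complex V the genes that rose were ATP5MC3, ATP5IF1 and ATP5PF. ATP5F1B, the gene of the catalytic beta subunit, is not among the members, so the head was covered only in part. ATP5MC3, whose promoter is shown above, had a median of 43.6 CPM in control (39.2 to 55.6), 50.1 in PFA (35.1 to 67.6) and 59.7 in OO (37.5 to 92.6), and in OO + PFA it ranged from 63.2 to 78.1 CPM with a median of 68.5 (log2 fold change 0.46, SE 0.14, adjusted p = 0.0311). ATP5IF1, the inhibitory factor that blocks reverse hydrolysis of ATP, had a median of 37.3 CPM in control (31.7 to 40.1), 36.7 in PFA (28.3 to 40.3) and 46.0 in OO (21.0 to 68.2), and lay between 44.9 and 55.4 CPM in OO + PFA (log2 fold change 0.46, adjusted p = 0.0331). ATP5PF, a stalk subunit named after its values were seen, rose by 0.27 (adjusted p = 0.0414), and 27.5% of its exon bases lie opposite GABPA. The members of the F1 head or central stalk, ATP5F1A, ATP5F1C and ATP5F1D, had log2 differences of 0.08, 0.07 and 0.32 (adjusted p = 0.0761 for the last) that did not pass the test. The 3 c-subunit genes make the same mature protein, and the ratio of ATP5MC1 to ATP5MC3 per length was 0.736 to 1.24 in control with a median of 0.762, 0.618 to 1.08 in OO with a median of 0.807, and 0.452 to 0.606 in OO + PFA with a median of 0.471. In OO + PFA this ratio did not overlap with control or OO.

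The GC content of the genes moved with these results. The 16 members called with the oil had an exon GC content of 50.1% to 65.3% with a median of 58.8%, and the 44 not called had 35.4% to 63.2% with a median of 49.2%. Over all liver genes tested with a GC value, the median log2 fold change with the oil went from -0.10 below 40% GC to 0.42 at 60% and above. In the same classes the members went from -0.02 to 0.77, and they were above the median of all genes in each of the 6 classes. In all 55 of 60 members were above the median of their own GC class, with a median difference of 0.20. The same was seen in OO against control (55 of 60, median difference 0.21) and in OO + PFA against PFA (53 of 60, 0.20), and in PFA against control 17 of 60 were above it (-0.04). GC values were at hand for all members but for 78.8% of the liver genes tested, so this is a description and a formal check of GC over all genes is void.

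**Figure D4:**
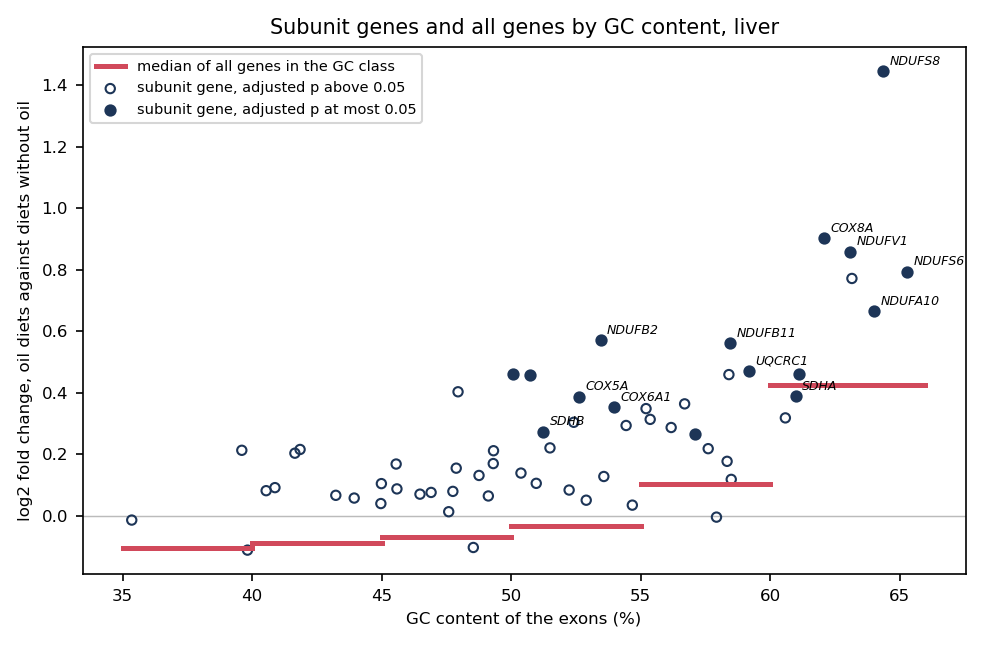
Log2 fold change of the oil diets against the diets without oil for each subunit gene against its exon GC content in percent, with filled points for the 16 called members. Red marks are the medians of all genes tested with a GC value in 6 classes, the outer 2 being below 40% and 60% and above, and the members lie above them in each class (0.77 against 0.42 in the last).

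The libraries themselves differed in how their counts depended on GC. The slope of log2 CPM on GC, per 10% of GC relative to the mean of the liver libraries, lay between -0.198 and 0.084 in control, -0.471 and 0.059 in PFA, -0.373 and 0.410 in OO and 0.033 and 0.480 in OO + PFA. It was 0.296, 0.410 and 0.362 in OO pig 99, the pig titled PigLiv_00_102 and OO pig 130 and -0.338, -0.149 and -0.373 in OO pigs 74, 88 and 97, which is the same split as for NDUFS8. With the slope of each library as a term in the fit, 56 of 60 members were still above 0 with a median log2 fold change of 0.16 against 0.02 over all genes, and 0 were called in edgeR's quasi-likelihood test, where 433 genes of all were called. UQCRC1 then had a log2 difference of 0.30 (adjusted p = 0.0553), SDHB 0.28 (adjusted p = 0.0680), NDUFS6 0.36 (adjusted p = 0.134), NDUFS8 0.49 (adjusted p = 0.189) and COX8A 0.22 (adjusted p = 0.501). SDHB kept its size and the GC-rich genes NDUFS8 and COX8A did not. The slope was estimated from the same libraries and differs between diets, and its part in the result was not tested.

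Averaged over the 60 members, the log2 CPM of a library lay between 5.35 and 5.66 in control, 5.25 and 5.604 in PFA and 5.66 and 5.76 in OO + PFA. In OO it was 5.27 in pig 97, 5.55 in pig 74, 5.77 in pig 88, 5.85 in pig 99, 5.92 in the pig titled PigLiv_00_102 and 6.11 in pig 130, so the SD over pigs was 0.297 in OO. It was 0.126 in control, 0.127 in PFA and 0.0494 in OO + PFA. The library titles come in a longer and a shorter form, which the labels do not explain. Among the libraries titled in the longer form, the mean was 5.74 ± 0.124 (SD, n = 7) with oil and 5.39 ± 0.0813 (n = 7) without, and the values did not overlap. Among those in the shorter form it was 5.72 ± 0.347 (n = 4) with oil and 5.57 ± 0.0876 (n = 5) without, and the values overlapped. With the form of the title as a term in the fit, 22 members were called with the oil, and 1638 genes of all against 1630 without the term.

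**Figure D5:**
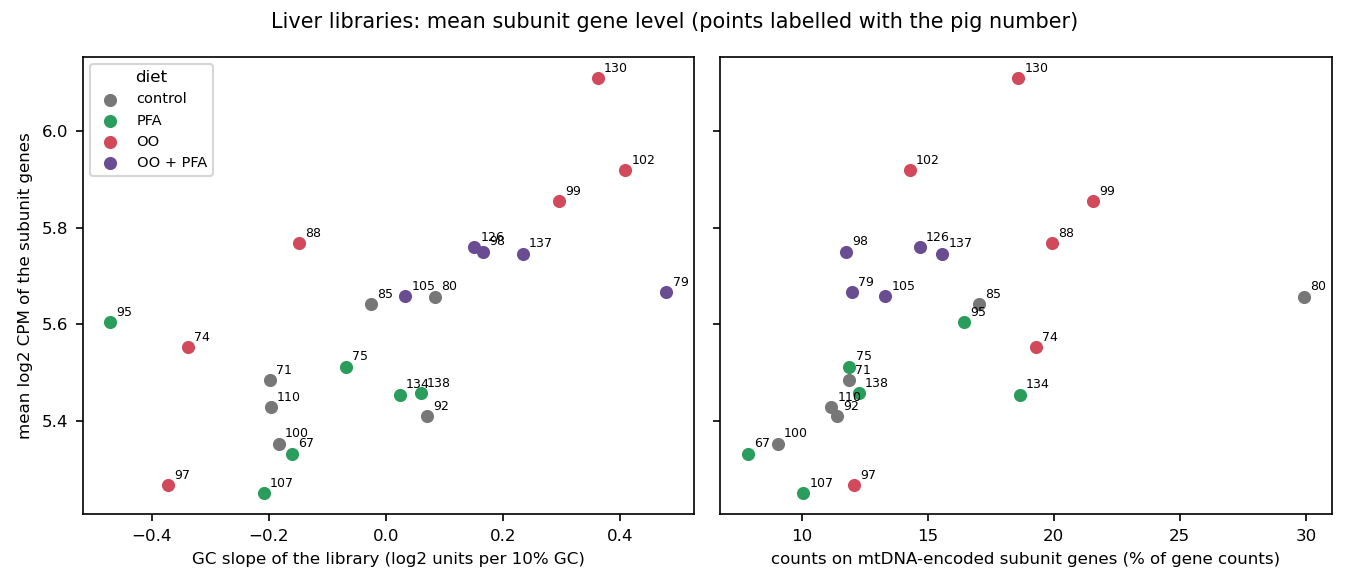
Mean log2 CPM of the 60 subunit genes in each liver library against the GC slope of the library and against the percent of its gene counts from mitochondrial DNA, by diet and labelled by pig number. OO pig 130 is highest (6.11) and OO pig 97 is near the lowest (5.27), on opposite sides of the range of GC slopes.

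PFA was compared with control to ask what the additive alone did. In liver 0 of 60 members were called, where 0% of all genes were called, and at an unadjusted p under 0.05 none was higher and 4 were lower, against 3.8% and 7.21% of all genes (edgeR's quasi-likelihood test, with 0 in DESeq2). The median was -0.04 against 0.03 over all genes, and 25 members were above 0, against 53.8% of all genes. The smallest p belonged to COX6A1, with a log2 difference of -0.38 (unadjusted p = 0.00638, adjusted p = 0.333), NDUFA4L2 with -0.85 (adjusted p = 0.435) and NDUFS3 with -0.25 (adjusted p = 0.440). COX6A1 in PFA ran from 83.1 to 105.7 CPM and in control from 103.9 to 137.9, so the ranges overlapped only at their ends.

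Adding PFA to the oil diet was compared as OO + PFA against OO, and again no member was called (0 of 60, where 0% of all genes were called, and 0 in DESeq2). At an unadjusted p under 0.05 none was higher and 4 were lower in edgeR's test, against 4.02% and 4.48% of all genes (8.5% in all), and the median was -0.12 against -0.02, with 14 of 60 members above 0, against 46.5% of all genes. The smallest p belonged to the c-subunit gene ATP5MC1, at 49.2, 46.2, 36.6, 46.1 and 44.3 CPM in OO + PFA against 42.8 to 83.7 CPM in OO (log2 difference -0.48, unadjusted p = 0.0129, adjusted p = 0.480). NDUFB8 and NDUFS3 followed with -0.30 and -0.28 (adjusted p = 0.513 and 0.561). For the interaction, the difference between the effects of the oil with and without PFA, 0 members were called by edgeR's quasi-likelihood test or DESeq2, where 0% of all genes were called, and 2 were higher and none lower at an unadjusted p under 0.05, against 7.87% and 5.73% of all genes. The median interaction was -0.05, the same as over all genes, with 22 members above 0, against 45% of all genes. The smallest p belonged to NDUFA4L2 (1.602, SE 0.55, unadjusted p = 0.00737, adjusted p = 0.226), which had 5 to 70 counts per liver library, then COX6A2 (0.52, adjusted p = 0.323) and NDUFV2 (-0.24, adjusted p = 0.453).

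Across the 4 diets in a single test 3 members were called, where 3.66% of all genes were called: UQCRC1 (adjusted p = 0.0294), COX6A1 (adjusted p = 0.0351) and NDUFS6 (adjusted p = 0.0478, edgeR's quasi-likelihood test). The count was 26 without OO pig 97, 7 without OO pig 74, 0 without PFA pig 67 or 107 or OO + PFA pig 98, and 1 without control pig 110, PFA pig 134, OO pig 99, OO + PFA pig 79 or the pigs titled PigLiv_00_102, PigLiv_00P_126 and PLOOP_137_2. Here too the share of all genes called in the same refits is not given.

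In ileum PFA against control 0 of 60 members were called, where 0% of all genes were called by edgeR's quasi-likelihood test, and DESeq2 called 0 as well. At an unadjusted p under 0.05, 9 members were higher and none lower, against 1.54% and 1.27% of all genes. A total of 43 were above 0, against 53.3% of all genes, with a median of 0.10 against 0.02. The complex medians were 0.07, 0.21, 0.10, 0.09 and 0.20. ATP5MK, a small membrane subunit of ATP synthase, was at 59.5, 60.7, 64.6, 61.9 and 53.4 CPM in control and at 72.3, 71.6, 81.6, 70.3 and 78.4 CPM in PFA, without overlap (log2 difference 0.32, SE 0.089, unadjusted p = 0.00399, adjusted p = 0.991). COX5A was at 152.4, 129.1, 157.8, 143.3 and 161.7 CPM in control and at 155.3, 187.2, 193.6, 172.9 and 200.4 CPM in PFA, overlapping in 1 PFA piglet (log2 difference 0.29, unadjusted p = 0.0156). NDUFS1, the largest subunit of complex I, was at 135.8, 128.8, 152.2, 144.1 and 136.6 CPM in control and at 170.4, 159.0, 164.3, 149.9 and 185.6 CPM in PFA (log2 difference 0.25, unadjusted p = 0.0177). The enterocyte list summed to between 19030 and 29940 CPM in control ileum and to between 16540 and 20010 CPM in PFA ileum, and 1 control library (pig 80) had 566.6 CPM of B cell markers where the others of ileum had at most 19.5, and the 5 smooth muscle markers were all above 0 with PFA, with a median log2 difference of 0.43. Their part was not tested. None of the genes named for ileum is a call, and the adjusted p was 0.991 for ATP5MK, COX5A and NDUFS1 alike.

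Levels in ileum and liver were compared in control piglets. Against the typical gene, 43 of 60 members were lower in ileum and 2 higher, where 71.7% of all genes were called, 35.1% lower and 36.6% higher. The median log2 fold change was -0.85 against 0.02 over all genes. The complex medians were -0.9999 for complex I (22 genes lower), -1.20 for complex II (3), -0.88 for complex III (4), -0.87 for complex IV (7 lower and 2 higher) and -0.55 for complex V (7). By the study's methods RNA integrity was allowed to be lower in liver than in ileum, and its part was not tested. The direction depends on scaling, since with library totals instead of TMM 26 members were called higher in ileum and 4 lower, and the median of the members was 0.28 while that of all genes was 1.14. Relative to the median of all genes the members were lower under both, at -0.87 and -0.86 on the log2 scale.

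The genes with the smallest p in this comparison were NDUFA4 (log2 fold change -1.86 under TMM, SE 0.12, adjusted p = 1.73e-08), COX7A1 (-3.09, SE 0.21, adjusted p = 2.62e-08) and SDHB (-1.23, SE 0.10, adjusted p = 1.43e-07), then NDUFB10, NDUFS3, SDHC, NDUFB4, COX7B, NDUFB11, NDUFB9, NDUFA6 and NDUFS4, with log2 fold changes from -1.88 in NDUFB11 to -1.06 in NDUFS4. COX7A1 was at 9.75, 5.64, 11.2, 6.01 and 6.22 CPM in control ileum and between 24.9 and 36.3 CPM in control liver, each scaled within its tissue. The genes higher in ileum were COX5A (0.67, SE 0.10, adjusted p = 4.53e-05) and COX7A2L, a factor that joins complexes III and IV (0.42, SE 0.12, adjusted p = 0.00728). ATP5F1A differed by -0.11 (adjusted p = 0.485) and did not pass the test. So within complex IV COX7A1 and COX5A moved in opposite directions relative to the other genes of a library.

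The 13 subunits encoded in mitochondrial DNA were listed for comparison. They gave 9.05% to 29.9% of the gene counts in control liver, 7.86% to 18.7% in PFA, 12.1% to 21.5% in OO, 11.8% to 15.6% in OO + PFA, and 11.6% to 15.3% in ileum, from libraries made with poly(A) enrichment. None of the 13 was called in any diet comparison of liver or ileum by edgeR's quasi-likelihood test, and the only ones at an unadjusted p under 0.05 were 1 gene in OO against control and 1 in ileum. The 13 genes together make up the mitochondrial share of a library, so the counts below are not 13 independent results. In OO against control 12 of 13 were above 0, against 57.7% of all genes, with a median of 0.22, the same as the nuclear members. In OO + PFA against control 1 of 13 was above 0, against 48.8% of all genes, with a median of -0.23, where the nuclear median was 0.11. Against OO all 13 were lower in OO + PFA, where 46.5% of all genes were above 0, with a median of -0.54. ND6, a complex I subunit read from the other strand of the mitochondrial genome than the rest, ranged from 42.0 to 141.2 CPM in control with a median of 61.6 and from 69.1 to 180.2 CPM in OO with a median of 152.9 (log2 difference 0.88, SE 0.32, adjusted p = 0.115). In ileum all 13 were above 0 with PFA, against 53.3% of all genes, with a median of 0.13. All 13 were lower in ileum than in liver relative to the typical gene, where 50.7% of all genes were above 0, with a median of -1.52.

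Of the subunits whose names fall outside the rule, NDUFAB1, the mitochondrial acyl carrier protein that is also part of complex I, was called in OO against control, where no member was. It ranged from 26.5 to 31.9 CPM in control with a median of 27.8, from 25.9 to 37.1 CPM in PFA with a median of 28.8 and from 24.2 to 56.8 CPM in OO with a median of 40.4. In OO + PFA it lay between 39.0 and 45.4 CPM with a median of 42.5, so that group was above every library without oil. It rose by 0.56 in OO against control (SE 0.15, adjusted p = 0.0450), by 0.55 in OO + PFA against control (SE 0.16, adjusted p = 0.0423) and by 0.51 with the oil in both diets (SE 0.11, adjusted p = 0.0054). CYC1, the cytochrome c1 of complex III, rose with the oil by 0.54 (SE 0.13, adjusted p = 0.0115). For NDUFAB1 and CYC1 no values with the GC slope of each library as a term are given here. COX4I1 had a log2 difference of 0.49 (adjusted p = 0.118), the ATP synthase factor DMAC2L 0.19 (adjusted p = 0.255), the electron carrier CYCS 0.11 (adjusted p = 0.596) and COX4I2 0.06 (adjusted p = 0.920), and none of these passed the test.

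Other genes of the pathway were counted in the same contrast of the oil over both diets, from lists written for these data. Over all genes 8.95% were called higher in this contrast, and the counts below are to be read against that share. The calls of members in this contrast were all lost with the GC slope of each library as a term. No counts of these lists from that fit are given here, so their calls are not firmer than those of the members. Of the assembly factors of the complexes 7 of 41 rose, with a median of 0.14, among them SDHAF2, which adds flavin to SDHA (0.43, adjusted p = 0.00694), and the copper carriers COX19 (0.67, adjusted p = 0.00777) and COX17 (0.82, adjusted p = 0.0176). Of the genes that feed electrons or exchange nucleotides 6 of 16 were called, with a median of 0.26, among them ETFDH (0.56) and ETFB (0.81), which pass electrons from fatty acid oxidation to ubiquinone, and the carrier SLC25A6 (1.17). Of the citric acid cycle genes 5 of 18 were called, with a median of 0.08, among them MDH2 (0.62) and OGDH (0.77). Of the regulators of mitochondrial biogenesis 2 of 16 were called, the nuclear receptor ESRRA (0.49, adjusted p = 0.0236) and the coactivator PPARGC1B (0.96, adjusted p = 0.0319), with a median of 0.11. Among targets of PPARA, the receptor for fatty acids in liver, 15 of 19 were called, with a median of 0.95, among them CPT1A (1.51), CPT2 (1.59) and ACADVL (1.34). The subunit genes had a median of 0.21 in the same livers, and the lists were not compared by a test. In PFA against control, in liver and in ileum, none of the genes of these lists was called.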

How the data were processed

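Gene counts were used as deposited by the authors, who aligned paired reads of stranded poly(A)-enriched libraries to Sscrofa11.1 with STAR 2.6.1d and summed read pairs over each Ensembl gene in HTSeq. The submitters' processing notes also name DESeq2 1.22.2. Which annotation release and strand setting were used is not given in the sources used here. The summary rows of HTSeq (pairs without a gene, ambiguous pairs, multiple alignments) stayed out of library sizes.

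Counts were fitted with edgeR 4.0.16 (limma 3.58.1, R 4.3.3) with TMM scaling, genes kept by filterByExpr (13831 in liver, 14300 in ileum, 14464 for both tissues), and quasi-likelihood tests, two-sided, with Benjamini-Hochberg adjustment over all genes kept and calls where this was 0.05 or less. The SE is the log2 fold change divided by the root of F. Log2 CPM used a prior count of 2. The GC slope is that of the log2 CPM of a library, centred per gene within the tissue, on exon GC. The p-values measure the spread between pigs of 1 pen per diet. Tables and figures were made with Python 3.11.15, pandas 2.3.3, numpy 2.4.6 and matplotlib 3.10.9, and the fit was tested on simulated data.

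Symbols were matched for 14857 of 25880 genes, and RefSeq gene models on Sscrofa11.1 for 13537, all 61 members included. Symbols of 8 further subunits had no row and were not analysed here. The members, the gene lists and the tests were chosen with earlier results of these data known. Named with statistics were all members called in a comparison, or the 12 with the smallest p where more than 12 were called with up to 5 in the other direction, or the 3 with the smallest p where none was, then the highest and lowest member of each complex, isoform pairs, core subunits and, from other lists, at most 3 called genes, and a few genes that this rule names are not reported here. Alternatives were DESeq2 1.42.0, RLE size factors, no filter on low counts, the GC slope or the form of the title as a term, all 24 liver libraries, leaving out each library and, for tissues, the pig as a block. The contrast of both oil diets and the scaling by library totals were added after the data were seen. The same pigs gave both tissues, and the deviations of a pig from its group means correlated across 14464 genes at 0.137, 0.26, 0.117, 0.0287 and 0.391 for pigs 71, 80, 92, 100 and 110.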

Additional observations from a re-analysis of the deposited data

Results flagged for a closer look

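In groups of 4 to 10 libraries, the highest or lowest value of a named member or of a library total was compared with its nearest neighbour by Dixon's ratio. The limit used is meant to set apart about 1 in 20 independent groups by chance. Values of different genes in the same library are not independent tests, so the count of values set apart is not compared with chance. Of the groups tested 13 had a value set apart. Of these, 7 were the same ileum library, PFA pig 134, which was the highest of the 5 PFA ileum libraries for UQCRC1 (201.9 CPM, next 132.8), NDUFV1 (60.8 CPM, next 28.5), NDUFS8 (32.04 CPM, next 13.3), NDUFA10 (74.4 CPM, next 40.9), SDHA (227.0 CPM, next 152.1), COX8A (100.9 CPM, next 38.4) and NDUFC2 (36.5 CPM, next 21.8). The GC slope of that library was 0.369. Only members named for the oil comparisons in liver were checked, so it was set by that choice that these genes also differed in liver. Without it the median log2 difference of the 60 members in ileum was 0.11 and 35 of them were above 0.

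In liver, NDUFS6 was highest in PFA pig 138 (24.3 CPM, next 18.5). SDHB was highest in PFA pig 95 (168.9 CPM, next 138.4) and lowest in OO + PFA pig 79 (133.3 CPM, next 176.3). NDUFB11 was lowest in the OO + PFA pig titled PigLiv_00P_105 (40.5 CPM, next 49.4). The total of read pairs on genes was highest in OO pig 97 (41470000, next 27650000) and in PFA pig 67 (42450000, next 29090000). OO pig 97 is the deepest OO library and also the one with the lowest mean level of the subunit genes.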

How the results depend on the processing

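No direction of a member named as called in a liver diet comparison was reversed under any alternative run, and in all such comparisons the calls were of higher genes. In OO against control, where 0 members were called, DESeq2 called 3 and the GC term gave 1, and leaving out 1 library gave 0 to 15. In OO + PFA against control, where 3 were called, DESeq2 called 6, RLE size factors 1, the GC term 0, all 24 libraries 8 and library totals 8, and leaving out 1 library gave 0 to 3. In OO + PFA against PFA, where 0 were called, DESeq2 called 3, the title form as a term 2, all 24 libraries 10 and library totals 5, and leaving out 1 library gave 0 to 2. For both oil diets together, with 16 called, the GC term gave 0 and library totals 26, DESeq2 called 18 with all 16 among them, and leaving out 1 library gave 9 to 30. Across the 4 diets, with 3 called, DESeq2 called 7, the GC term gave 0, all 24 libraries 7 and library totals 7, and leaving out 1 library gave 0 to 26. The cause of these differences was not tested. Such counts of members are not set against the share of all genes called in the same run. The 0 calls of PFA against control in liver and ileum, of OO + PFA against OO and of the interaction stayed at 0 under each alternative run.

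Between tissues, leaving out 1 library gave 42 to 46 calls, and with the replicate block of the same pigs 44 were called (2 higher and 42 lower). The pairs of pig 100 correlated at 0.0287 only. The block changed no other result, since the diets were fed to different pigs.

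The single pen per diet limits these results, and the low counts of NDUFA4L2 and COX6B2 leave their values uncertain. Overlapping exons were shared by 13 members, 12 of them on the opposite strand.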

Other observations

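The genes of the mitochondrial ribosome, which makes the subunits encoded in mitochondrial DNA, were counted in the same way as the respiratory chain genes. Over both oil diets 15 of 64 rose and none fell, where 8.95% of all genes were called higher, and 58 were above 0, against 50.9% of all genes, and the median log2 fold change was 0.21. In OO against control 4 were called higher, against 1.37% of all genes, and 60 were above 0, against 57.7%, with a median of 0.34. For the 46 tested genes of the cytosolic ribosome the median with both oil diets was 0.02 and 1 was called. No test compared these lists with each other or with the subunit genes. Their counts with the GC slope of each library as a term, under which the pooled calls of the subunit genes were lost, are not given here.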
